A study of Mus musculus with 9 samples.

Results

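Among the 6 liver libraries of 2 groups of mice, labelled A-C and M, 3 held a strong acute phase response and 3 a weak one, and the strength of that response cut across the group labels. The libraries were selected on a measured value, their deposited level of Saa1, the mRNA of serum amyloid A, which hepatocytes make in inflammation. A library counted as strong above 3000 TPM (transcripts counted per length and set to a common library total) and as weak below it. The strong libraries were A-C replicate 12, M replicate 26 and M replicate 27, and the weak ones were A-C replicate 6, A-C replicate 9 and M replicate 24. The other 3 of the 9 libraries, C replicates 2, 3 and 4, served as a common reference. All came from liver of C57BL6J mice (C57BL7J in the label of C replicate 4), and all carry the cell type label hepatocyte. The study's subject is MgIG (magnesium isoglycyrrhizinate, derived from a compound of liquorice root) in mice that drink alcohol with a liquid diet after the NIAAA protocol. The labels do not say which diet, drug or time each letter stands for, and they give no age. Reads recovered from the deposited values numbered between 45597163 and 65165613 per library. Nothing says that replicates came from separate animals, and a p-value then reflects the spread of these samples alone, which may be technical.

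The acute phase response is the liver's reaction to inflammation elsewhere or in the organ itself. Cytokines such as interleukin-6 (IL-6) and interleukin-1 act on hepatocytes through STAT3, C/EBP factors and NF-kB, and the cells then secrete serum amyloid A, haptoglobin, hemopexin and other plasma proteins in large amounts. Such plasma proteins enter the endoplasmic reticulum (ER), where chaperones fold them and where an overload calls up the unfolded protein response. The same cytokines are known to lower many genes of hepatocyte metabolism.

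Deposited Saa1 was 13984 TPM in A-C replicate 12, 10589.8 TPM in M replicate 26 and 5825 TPM in M replicate 27, against 19.8 TPM in A-C replicate 6, 1372 TPM in A-C replicate 9 and 189 TPM in M replicate 24. The libraries just inside and just outside the limit were thus M replicate 27 and A-C replicate 9, and C had 23.4, 26.1 and 26.9 TPM. Among the weak libraries, A-C replicate 6 was thus near C and the others above it. From here on, levels are TPM scaled by the trimmed mean of M values (TMM), and 3 values in a row stand for A-C replicate 12, M replicate 26 and M replicate 27 (strong), for A-C replicates 6 and 9 with M replicate 24 (weak) or for C replicates 2, 3 and 4. Saa2, a near copy of Saa1 with which it could share reads, stood at 13104, 8545 and 3806 TPM in strong, 7.89, 767 and 34.6 TPM in weak and 9.3, 16.2 and 9.47 TPM in C libraries. Lcn2, which encodes the iron-binding acute phase protein lipocalin 2, stood at 4408, 1687 and 667 TPM in strong, 15.1, 440.1 and 39.0 TPM in weak and 14.9, 6.01 and 4.6 TPM in C libraries. The 43 measured acute phase genes took 25.9%, 19.3% and 15.1% of all TPM in the strong libraries, 6.44%, 12.1% and 7.28% in the weak libraries and between 5.17% and 7.42% in C. A-C replicate 9 was the highest weak library for Saa1, Saa2 and Lcn2 and for the summed list. These values chose the libraries or belong to the same response, and they are given as a description.

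**Figure D1:**
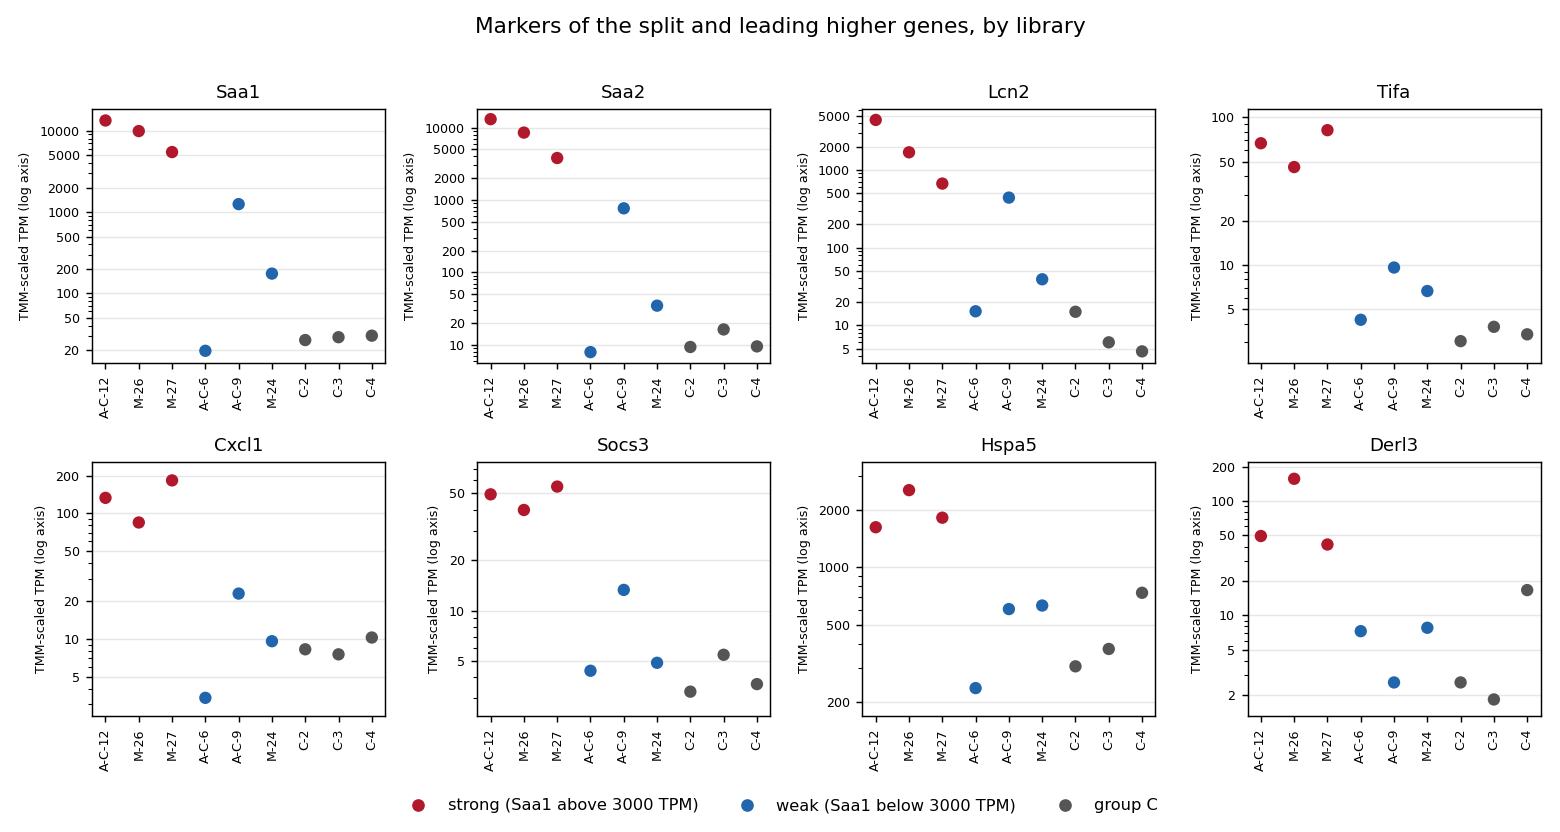
TMM-scaled TPM (log axis) of 8 genes in the 9 libraries, with 1 point per library, the strong libraries in red, the weak ones in blue and C in grey. Each of the 8 genes is higher in every strong library than in every weak one, and A-C replicate 9 or M replicate 24 is the weak library nearest to them.

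Of 11086 genes with at least 1 TPM in at least 3 libraries, 2006 were higher in all 3 strong libraries than in any weak one (18.1%) and 1616 were lower (14.6%). Since the libraries were sorted by a measured level, these counts are a description with no test. The share of a gene list is read against those percentages. Among the higher genes, 30 were under 1 TPM in every weak and C library and passed the filter through the strong libraries alone. Among the lower genes, 96 were under 1 TPM in every strong library. Overlap is judged over the libraries of A-C and M together, so a gene that overlaps may still run one way within each group. A gap of at least 1 log2 unit between the nearest strong and weak libraries, on log2(TPM + 1), was found for 32 higher genes (0.289%) and 22 lower ones (0.198%). Without A-C replicate 9 the counts with that gap were 104 and 95, and the count of lower genes without overlap was 2554. The gap counts were 57 and 46 without M replicate 27, and the lower one was 47 without A-C replicate 12 and 35 without M replicate 26. With fewer libraries on a side, fewer values have to clear each other. List counts without 1 library are thus read against 2142 to 2742 higher and 1772 to 2554 lower genes over all tested ones. Among the 2006 higher genes, A-C replicate 9 was the weak library nearest to the strong ones in 59.1%, and it was the nearest in 61.9% of the 1616 lower genes. C lay wholly below the strong libraries in 1405 of the higher genes (70.0%) and wholly above them in 1011 of the lower genes (62.6%). Genes picked for high or low strong levels favour these positions of C, and the shares over all tested genes were not counted. The position of C also depends on the scaling. In bulk RNA, fewer cells of a type and less RNA per cell cannot be told apart.

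**Figure D2:**
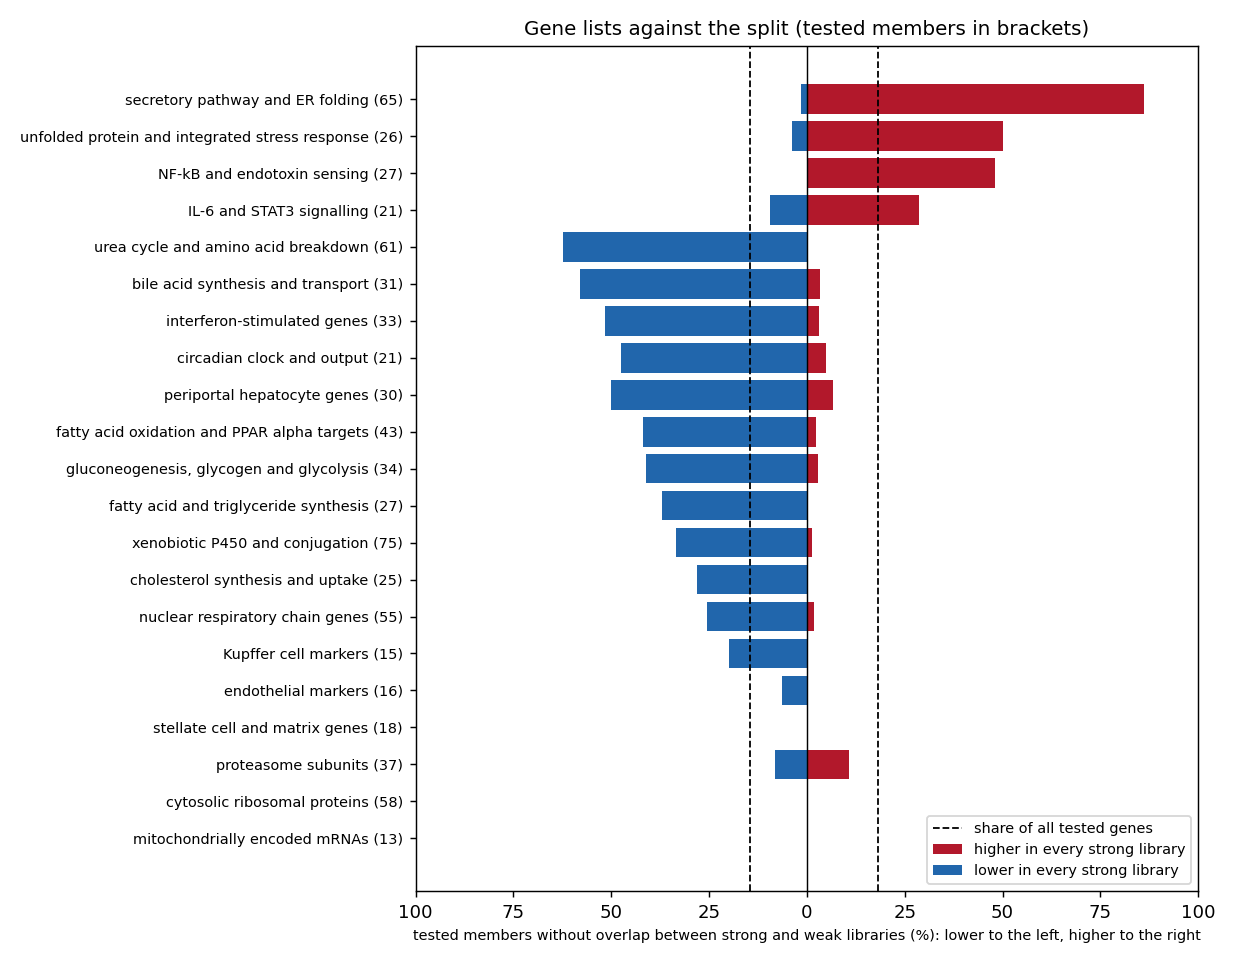
Share of the tested members of 21 gene lists that lay without overlap above (red, to the right) or below (blue, to the left) the weak libraries in all 3 strong ones, in percent, with the number tested in brackets. Dashed lines mark the shares of all 11086 tested genes, 18.1% higher and 14.6% lower. The secretory list reaches farthest to the right and the amino acid list farthest to the left. Stellate cell and matrix, ribosomal protein and mitochondrially encoded genes have no bar.

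The genes of the secretory pathway other than the acute phase proteins themselves ran with the split more fully than any other list drawn in the plot of gene lists. Of 65 tested members, 56 were higher in every strong library and 1 was lower, with a median difference of 0.60 log2 between the middle strong and the middle weak library, against 0.005 log2 over all tested genes. The count was 54 in TPM as deposited. It was 56 without A-C replicate 9, but leaving out a library cannot lower this count. C lay wholly below the strong libraries for 50 of the 56. The summed level of the list was 14949.7, 17331 and 13208 TPM in strong, 5912, 7490.2 and 7855 TPM in weak and 5587, 6193 and 8378 TPM in C libraries. Unlike the acute phase genes, whose highest weak library was A-C replicate 9 in 21 of 22 higher members, the higher secretory genes had M replicate 24 as their highest weak library in 32 of 56 and A-C replicate 9 in 21.

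Chaperones and folding enzymes of the ER had the widest differences of the 4 groups within the list. All 15 were higher in the strong libraries, with a median difference of 1.34 log2. Hspa5, at chr2:34771970-34777547 in the mm10 build, encodes BiP, the main ER chaperone, and was present at 1620.0, 2527 and 1816 TPM in strong, 236, 607 and 634 TPM in weak and 306, 377 and 738 TPM in C libraries. No strong library overlapped with a weak one or with C, and the lowest strong level was 2.56-fold the highest weak one. Hsp90b1, the ER form of the chaperone HSP90, stood at 1026, 1392 and 862 TPM in strong, 206, 326 and 371 TPM in weak and 211, 254 and 403 TPM in C libraries, again with no overlap. Hyou1, an HSP70-like exchange factor for BiP, had 176, 243 and 199.8 TPM in strong, 22.4, 69.1 and 78.1 TPM in weak and 29.96, 38.6 and 72.4 TPM in C libraries. Sdf2l1, which works with BiP and its co-chaperone, stood at 299, 535 and 228 TPM in strong, 21.3, 54.5 and 80.6 TPM in weak and 36.2, 44.5 and 140.0 TPM in C libraries, so that the highest C library lay above all weak ones and below all strong ones. Pdia4, a protein disulfide isomerase, had 693, 1201 and 629 TPM in strong, 113, 227 and 221 TPM in weak and 158, 148 and 298 TPM in C libraries. Creld2, an ER-stress-inducible protein of the same compartment, was present at 771, 1279.7 and 647 TPM in strong, 35.0, 168 and 179 TPM in weak and 81.8, 81.7 and 246 TPM in C libraries, and its lowest strong library was 3.62-fold its highest weak one. At the other end of the group, P4hb, another protein disulfide isomerase, had 1912, 1507 and 1312 TPM in strong and 1225, 1076 and 1149 TPM in weak libraries, a gap of 0.10 log2. Canx, the membrane lectin calnexin, had 159, 175 and 210.4 TPM in strong and 121, 144 and 158 TPM in weak libraries, and its gap of 0.01 log2 turned to -0.03265 log2 in TPM as deposited.

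Machinery that brings chains into the ER was higher in 17 of 21 tested genes, with a median of 0.60 log2. Srprb, a subunit of the signal recognition particle receptor, stood at 42.7, 34.5 and 29.1 TPM in strong, 9.71, 15.4 and 14.9 TPM in weak and 11.1, 13.6 and 18.3 TPM in C libraries. Sec61a1, the channel of the translocon, had 85.6, 66.2 and 71.9 TPM in strong, 26.9, 41.9 and 42.3 TPM in weak and 17.8, 24.2 and 31.9 TPM in C libraries. In both, the strong libraries lay above the weak ones and above C. Subunits of oligosaccharyltransferase, which attaches N-glycans, were higher in 6 of 8, with a median of 0.49 log2, and Rpn1 among them had 137, 124 and 108 TPM in strong and 49.9, 56.8 and 69.3 TPM in weak libraries. Vesicle coats and cargo receptors between ER and Golgi were higher in 18 of 21, with a median of 0.55 log2. Sec23b, an inner coat protein of COPII vesicles, had 50.2, 34.3 and 33.9 TPM in strong, 8.89, 19.3 and 19.5 TPM in weak and 16.5, 17.2 and 23.1 TPM in C libraries, and A-C replicate 12 was highest. Sar1b, a COPII GTPase, was the single lower member of the list, at 245, 286 and 316 TPM in strong and 406, 342 and 343 TPM in weak libraries. These 4 groups were drawn up within the list after its values had been seen, and the members named in them outside the naming rule were too.

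Sensors and effectors of the unfolded protein response and of the integrated stress response were higher in 13 of 26 tested genes and lower in 1, with a median of 0.56 log2. Derl3, a factor of ER-associated degradation that is typical of secretory cells, stood at 49.4, 156 and 41.7 TPM in strong, 7.28, 2.59 and 7.8 TPM in weak and 2.59, 1.84 and 16.6 TPM in C libraries, and M replicate 26 was far above the other strong libraries. Syvn1, the ubiquitin ligase of that degradation (HRD1), had 142, 320.0 and 174 TPM in strong, 19.6, 53.1 and 65.3 TPM in weak and 38.3, 39.8 and 98.5 TPM in C libraries. Xbp1, the transcription factor switched on by IRE1, had 284, 233 and 273 TPM in strong, 67.7, 179 and 120.0 TPM in weak and 77.7, 105 and 114 TPM in C libraries, with spliced and unspliced forms counted together. Genes of the integrated stress response were mixed. Ddit3 (CHOP) stood at 14.8, 27.4 and 19.3 TPM in strong, 7.31, 8.13 and 8.67 TPM in weak and 8.07, 11.8 and 15.2 TPM in C libraries, where the highest C library overlapped with the strong ones, and Atf4 at 129.8, 111 and 124 TPM in strong, 57.9, 80.2 and 58.8 TPM in weak and 80.4, 75.5 and 96.96 TPM in C libraries. Chac1, a glutathione-degrading enzyme induced by ATF4, had 21.0, 26.9 and 25.8 TPM in strong, 3.23, 7.8 and 11.4 TPM in weak and 3.8, 7.62 and 5.6 TPM in C libraries. Trib3, Asns, Atf5 and Fgf21, which ATF4 is also known to induce, overlapped between strong and weak libraries. Trib3 had 12.1, 9.56 and 4.34 TPM in strong and 10.2, 4.06 and 15.2 TPM in weak libraries. Its strong libraries were the higher ones within A-C and the lower ones within M. Atf5 had 712, 560.0 and 384 TPM in strong and 900.0, 1063 and 228 TPM in weak libraries, lower in strong within A-C and higher within M. Herpud1, a further ER-stress gene, had 356, 1164 and 1321 TPM in strong and 470.4, 596 and 747 TPM in weak libraries, with A-C replicate 12 below all weak libraries and both strong M libraries above them. Ern1, which encodes IRE1 itself, had 9.39, 12.8 and 13.9 TPM in strong and 10.8, 11.5 and 12.5 TPM in weak libraries.

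Bhlha15 (MIST1), a transcription factor known from cells with heavy secretion such as pancreatic acinar and plasma cells, had the largest gap of all named genes outside the acute phase list. It lies at chr5:144190286-144194441 in mm10 and stood at 21.2, 16.5 and 11.4 TPM in strong, 0.1, 0.546 and 1.38 TPM in weak and 0.484, 0.812 and 1.44 TPM in C libraries. The lowest strong library was 8.22-fold the highest weak one, and the weak libraries overlapped with C.

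Promoters were read for the genes with the widest gaps because the ER stress element (ERSE), the letters CCAAT and, after 9 bases of any kind, CCACG, is the textbook binding element of ATF6 and XBP1. The RefSeq window of 250 bases before the gene start (build GRCm38.p6) held it on either strand in 7 of 53 tested secretory genes with a promoter in the table (13.2%). The same window held it in 2 of 24 genes of the unfolded protein list, in 17 of 8627 tested genes (0.197%), in 12 of 1620 higher genes (0.741%) and in 0 of 1278 lower ones. Among all 32851 promoters it was found in 0.113%. Outside the acute phase list, 5 of the 24 genes that were higher with a gap of at least 1 log2 and had a promoter held it (20.8%). These 5 are printed 5′ to 3′ on the strand of the gene, with the ERSE letters in capitals, and a match on the other strand reads CGTGG first. They are Hspa5 (chr2:34771840-34772089, plus strand, where the RefSeq start lies downstream of the deposited one), Hsp90b1 with 2 matches (chr10:86705445-86705694, minus strand), Creld2 (chr15:88819396-88819645, plus strand), Derl3 (chr10:75893148-75893397, plus strand) and Syvn1 (chr19:6046326-6046575, plus strand).
Hspa5: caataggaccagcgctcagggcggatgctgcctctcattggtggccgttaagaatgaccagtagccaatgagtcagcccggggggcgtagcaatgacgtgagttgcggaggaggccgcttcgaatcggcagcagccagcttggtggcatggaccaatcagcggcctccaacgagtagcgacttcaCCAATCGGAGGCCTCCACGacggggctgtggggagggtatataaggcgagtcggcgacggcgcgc
Hsp90b1: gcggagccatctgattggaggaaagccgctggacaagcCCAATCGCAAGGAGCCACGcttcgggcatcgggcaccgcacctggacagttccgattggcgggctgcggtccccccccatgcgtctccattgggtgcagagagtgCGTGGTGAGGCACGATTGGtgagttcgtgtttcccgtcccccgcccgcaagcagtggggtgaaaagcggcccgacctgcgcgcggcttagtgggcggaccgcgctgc
Creld2: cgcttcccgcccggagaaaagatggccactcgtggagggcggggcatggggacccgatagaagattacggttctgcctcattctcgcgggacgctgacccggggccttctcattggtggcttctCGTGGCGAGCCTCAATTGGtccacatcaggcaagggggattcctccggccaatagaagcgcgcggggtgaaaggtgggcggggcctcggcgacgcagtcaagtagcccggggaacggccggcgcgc
Derl3: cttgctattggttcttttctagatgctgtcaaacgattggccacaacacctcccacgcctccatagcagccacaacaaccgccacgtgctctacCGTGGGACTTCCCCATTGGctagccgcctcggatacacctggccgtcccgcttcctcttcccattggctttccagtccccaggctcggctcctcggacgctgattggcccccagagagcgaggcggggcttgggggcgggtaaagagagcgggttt
Syvn1: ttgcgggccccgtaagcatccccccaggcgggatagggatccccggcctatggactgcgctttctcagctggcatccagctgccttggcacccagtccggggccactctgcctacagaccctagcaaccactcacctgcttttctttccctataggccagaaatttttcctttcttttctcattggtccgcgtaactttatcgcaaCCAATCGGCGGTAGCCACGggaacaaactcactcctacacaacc
Pdia6, Calr, Canx and Dnajc3 of the lists also held the letters. On either strand, TGATGCAAT, a C/EBP-ATF response element, stood in 1 of 24 promoters of the unfolded protein list (4.17%) and in 13 of 8627 tested genes (0.151%), and TTATGTAA, a D-box of clock output factors, in 1 of 17 of the circadian list (5.88%) and in 53 of the tested genes (0.614%). A match describes the sequence only, and a window without it says nothing of the factor.

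NF-kB signalling and endotoxin sensing had 13 of 27 tested members higher in the strong libraries and 0 lower, with a median of 0.21 log2. The higher count was 8 among genes of at least 5 TPM on average. That filter removes low members, and over all genes it left 1326 higher ones, against 2006. The lower count was 3 without M replicate 27 and 1 without A-C replicate 6 or A-C replicate 9. Tifa, an adaptor that joins TRAF6 upstream of NF-kB, had 66.8, 46.1 and 82.0 TPM in strong, 4.25, 9.61 and 6.66 TPM in weak and 3.05, 3.81 and 3.39 TPM in C libraries. All strong libraries lay above all others, the lowest by 4.8-fold over the highest weak one. Rela, the p65 subunit, had 30.5, 31.7 and 35.1 TPM in strong and 19.7, 25.2 and 22.4 TPM in weak libraries, and Myd88, the adaptor of Toll-like and interleukin-1 receptors, had 28.5, 21.2 and 27.5 TPM in strong and 9.32, 19.7 and 11.99 TPM in weak libraries, where A-C replicate 9 came close to M replicate 26. Tlr4 and its co-receptor Cd14, which sense endotoxin, overlapped, with 0.578, 0.415 and 0.385 TPM in strong and 0.461, 0.53 and 0.46 TPM in weak libraries for Tlr4 and 10.6, 2.9 and 2.82 TPM in strong and 4.43, 5.56 and 1.43 TPM in weak libraries for Cd14. Cd14 was higher in the strong libraries within A-C and within M, whereas Tlr4 was higher in A-C and lower in M. All these Tlr4 values were under 1 TPM, the level of the filter, so their order is uncertain. Nfkbia, the inhibitor IkB-alpha and a classical NF-kB target, overlapped too, at 39.0, 53.4 and 57.3 TPM in strong and 56.5, 58.5 and 82.7 TPM in weak libraries. Its strong libraries were the lower ones within A-C and within M. The receptor gene Il1r1 had 141, 79.8 and 158 TPM in strong and 20.7, 83.3 and 74.6 TPM in weak libraries, and its lowest strong library was below its highest weak one. Within each group, A-C or M, its strong libraries were still the higher ones.

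Chemokines and adhesion genes were higher in 2 of 14 tested members and lower in 4. Cxcl1, which attracts neutrophils, stood at 133, 84.5 and 183 TPM in strong, 3.38, 22.9 and 9.56 TPM in weak and 8.25, 7.52 and 10.2 TPM in C libraries, and Icam1, to which they adhere, at 11.9, 11.1 and 13.2 TPM in strong, 2.31, 4.17 and 2.31 TPM in weak and 1.8, 1.82 and 1.59 TPM in C libraries. Neither overlapped between strong libraries and the rest. Cxcl9, which interferon gamma induces, ran the other way, with 1.5, 2.05 and 3.09 TPM in strong, 4.28, 5.45 and 4.87 TPM in weak and 4.34, 7.51 and 6.95 TPM in C libraries. The kappaB letters GGAATTTCC stood in the 250-base windows of Cxcl1 and Icam1, which were 2 of the 24 higher genes with the wide gap and a promoter (8.33%), against 34 of 8627 tested genes (0.394%) and 94 of all 32851 promoters (0.286%). Among all higher genes 9 of 1620 held them (0.556%), close to the 7 of 1278 lower ones (0.548%). Of the NF-kB list, Nfkbia, which overlapped, was the 1 holder. Both windows are shown with these letters in capitals, Cxcl1 from chr5:90890995-90891244 and Icam1, where the match is on the other strand, from chr9:21015690-21015939, both on the plus strand.
Cxcl1: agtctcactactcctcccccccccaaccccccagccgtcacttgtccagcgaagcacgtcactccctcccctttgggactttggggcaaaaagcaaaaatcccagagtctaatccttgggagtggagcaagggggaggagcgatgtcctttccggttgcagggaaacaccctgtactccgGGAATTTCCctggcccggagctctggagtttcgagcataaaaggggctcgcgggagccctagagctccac
Icam1: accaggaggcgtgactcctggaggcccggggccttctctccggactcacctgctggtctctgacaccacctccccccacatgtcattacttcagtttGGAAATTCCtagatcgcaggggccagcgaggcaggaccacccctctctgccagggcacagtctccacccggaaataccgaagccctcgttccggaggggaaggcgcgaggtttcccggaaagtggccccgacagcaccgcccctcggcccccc

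Of 17 listed markers of neutrophils, 4 passed the filter on low values, and 2 of them were higher in the strong libraries. S100a9 had 34.04, 37.4 and 29.9 TPM in strong, 2.42, 23.2 and 3.26 TPM in weak and 0.762, 2.63 and 3.3 TPM in C libraries, and S100a8, its partner in calprotectin, had 16.0, 15.9 and 14.7 TPM in strong, 0.657, 13.1 and 0.702 TPM in weak and 0.215, 2.61 and 0.876 TPM in C libraries. In both, A-C replicate 9 stood just below the strong libraries and apart from the other weak ones. Summed over the list, the level was 60.7, 65.6 and 55.0 TPM in strong, 4.69, 46.7 and 5.53 TPM in weak and 1.8, 8.07 and 5.77 TPM in C libraries. S100a9 and S100a8 made up most of this sum in every library, so it adds little to them. Ly6g, the defining surface marker, was at 0.0909, 0.163 and 0 TPM in the strong libraries, 0, 0.211 and 0 TPM in the weak libraries and 0 in all of C, and Mpo was at or near 0 in all 9. The part of neutrophils in the levels of Cxcl1, Icam1 and Lcn2 was not tested.

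IL-6 and STAT3 signalling genes were higher in 6 of 21 tested members and lower in 2, with the lower count at 4 without A-C replicate 6 and 5 without M replicate 27. Socs3, the feedback inhibitor of the IL-6 receptor, had 49.3, 39.8 and 54.9 TPM in strong, 4.38, 13.3 and 4.88 TPM in weak and 3.28, 5.45 and 3.64 TPM in C libraries, and the lowest strong library was 3.0-fold the highest weak one. Bcl3, an IkB family protein induced by STAT3, had 55.8, 55.8 and 79.6 TPM in strong, 15.9, 36.7 and 18.5 TPM in weak and 18.6, 14.8 and 12.6 TPM in C libraries. Stat3 itself overlapped, with 50.4, 41.5 and 71.4 TPM in strong, 27.9, 49.5 and 36.0 TPM in weak and 11.1, 13.2 and 13.2 TPM in C libraries. Its strong libraries were the higher ones within M and, narrowly, within A-C. Here all 6 libraries of A-C and M stood above C, and limma called the mean of A-C and M against C higher by 1.75 log2 (Benjamini-Hochberg adjusted p = 0.00424, between 0.00172 and 0.0276 over 15 alternatives). Il6ra, the receptor subunit, had 18.6, 19.1 and 26.5 TPM in strong and 23.97, 28.2 and 37.2 TPM in weak libraries. Of the C/EBP genes that drive acute phase promoters, Cebpb was lower in the strong libraries, at 163, 199.6 and 240.4 TPM in strong, 264, 297 and 356 TPM in weak and 391, 446 and 366 TPM in C libraries, and Cebpd overlapped, at 14.95, 7.26 and 9.91 TPM in strong and 10.1, 14.0 and 10.3 TPM in weak libraries.

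The remaining genes among the 15 with the widest higher gaps belong to none of these lists. Cpne8, a calcium-dependent membrane-binding protein, had 16.7, 18.4 and 15.1 TPM in strong, 1.46, 5.34 and 1.76 TPM in weak and 0.788, 0.576 and 0.949 TPM in C libraries. Zc3h13, a component of the RNA methylation machinery, had 30.3, 22.9 and 36.9 TPM in strong, 6.2, 8.89 and 7.37 TPM in weak and 9.48, 6.26 and 6.04 TPM in C libraries. Tspyl2, a nuclear protein of the nucleosome assembly family, had 18.3, 24.2 and 13.6 TPM in strong, 2.03, 3.68 and 5.05 TPM in weak and 8.3, 10.8 and 15.6 TPM in C libraries, so that C reached into the range of the strong libraries, whereas C lay below them in the other 14. Over these 15 genes the lowest strong level was between 2.26-fold and 8.22-fold the highest weak one.

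**Figure D3:**
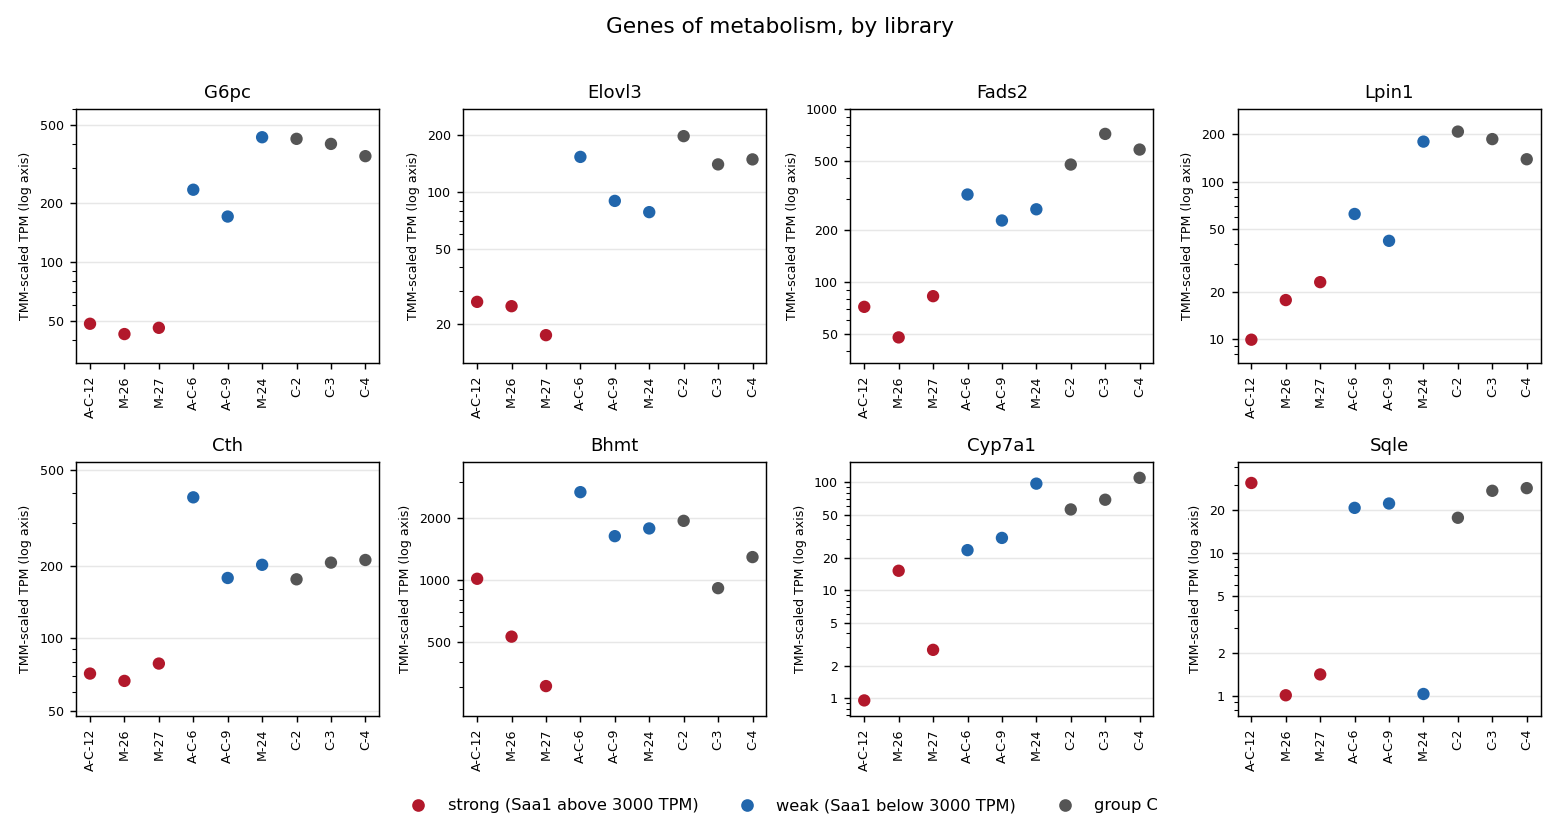
TMM-scaled TPM (log axis) of 8 genes of metabolism in the 9 libraries, with 1 point per library, the strong libraries in red, the weak ones in blue and C in grey. The first 7 are lower in every strong library than in every weak one. Sqle is near 1 TPM in all 3 M libraries and above 17 TPM in the A-C and C libraries, whichever side of the split they are on.

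Lower genes with the widest gaps were led by G6pc, the glucose-6-phosphatase of the last step of glucose release, at chr11:101367561-101377903 in mm10. It had 48.2, 42.7 and 46.0 TPM in strong, 233, 170.0 and 432 TPM in weak and 423, 399 and 346 TPM in C libraries, and the lowest weak library was 3.52-fold the highest strong one. The strong values were close to each other, and only M replicate 24 among the weak libraries reached the range of C. The gluconeogenesis, glycogen and glycolysis list had 14 of 34 tested members lower and 1 higher. Pck1, the entry enzyme of gluconeogenesis, had 705, 652 and 949 TPM in strong, 2729, 1712 and 3379 TPM in weak and 3754, 4179.5 and 3937 TPM in C libraries. Pfkfb1, which sets fructose-2,6-bisphosphate in liver, had 16.3, 10.8 and 12.3 TPM in strong, 33.4, 25.97 and 32.3 TPM in weak and 40.0, 33.6 and 37.9 TPM in C libraries.

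Genes of the urea cycle and of amino acid breakdown were lower in 38 of 61 tested members and higher in 0, with a median of -0.55 log2, the highest share of lower genes among the lists in the plot. The summed level was 25080.4, 19993 and 20507 TPM in strong, 37389, 30382 and 34977 TPM in weak and 28049, 27116 and 27129.9 TPM in C libraries, so C lay between the strong and the weak libraries. Cth, the cystathionine gamma-lyase of cysteine synthesis, had 71.4, 66.6 and 78.6 TPM in strong, 384, 178 and 202 TPM in weak and 176, 206 and 211 TPM in C libraries. Bhmt, which remethylates homocysteine, had 1012, 529.9 and 305 TPM in strong, 2667, 1630.0 and 1777 TPM in weak and 1935, 911 and 1289.9 TPM in C libraries, where C overlapped with the strong libraries. Ass1 and Cps1 of the urea cycle were lower as well. Ass1 had 2263, 1714 and 1289 TPM in strong, 4781, 3031 and 2919 TPM in weak and 2557, 2909 and 2399.8 TPM in C libraries, and Cps1, which forms carbamoyl phosphate, had 905, 573 and 834 TPM in strong, 1625, 1056 and 1447 TPM in weak and 787, 793 and 878 TPM in C libraries. C lay between the strong and the weak libraries for Ass1 and within the strong range for Cps1. Otc and Arg1 of the same cycle overlapped, with 94.8, 250.3 and 249 TPM in strong and 174, 129 and 316 TPM in weak libraries for Otc and 1525, 914 and 911 TPM in strong and 1456, 1590.1 and 1229 TPM in weak libraries for Arg1. Within A-C and within M, however, Otc was lower in the strong libraries than in the weak ones. Tat, tyrosine aminotransferase, had 996, 529 and 978 TPM in strong, 1603, 1829 and 3291 TPM in weak and 3489, 3299.5 and 3146 TPM in C libraries. Periportal hepatocyte genes, the zone in which the urea cycle runs, were lower in 15 of 30 and higher in 2. That list shares G6pc and Pck1 with the gluconeogenesis list. Genes of the opposite, pericentral zone were lower in 9 of 30 (30%) and higher in 1, against 14.6% lower over all tested genes.

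Bile acid genes were lower in 18 of 31 tested members and higher in 1, with a median of -0.64 log2. Cyp7a1, the rate-limiting enzyme of bile acid synthesis, had 0.954, 15.2 and 2.81 TPM in strong, 23.6, 30.6 and 97.5 TPM in weak and 56.2, 69.2 and 110.4 TPM in C libraries, and M replicate 26 was nearest to the weak libraries. Cyp8b1, which sets the share of cholic acid, had 58.6, 266 and 119 TPM in strong, 389, 395 and 353 TPM in weak and 264, 373 and 288 TPM in C libraries. Slc10a1 (NTCP), the uptake carrier of bile salts, had 285, 393 and 446 TPM in strong, 739, 618 and 759 TPM in weak and 739.7, 775 and 716 TPM in C libraries, and Abcb11, the export pump, had 42.6, 78.0 and 93.5 TPM in strong, 166, 151 and 105 TPM in weak and 71.4, 104 and 122 TPM in C libraries. Nr0b2, the repressor SHP, was lower too, at 9.08, 34.1 and 43.0 TPM in strong, 63.0, 66.6 and 72.3 TPM in weak and 68.8, 109.9 and 97.9 TPM in C libraries. C overlapped with the strong libraries in Cyp8b1 and Abcb11 and lay above them in Cyp7a1, Slc10a1 and Nr0b2. Nr1h4, the bile acid receptor FXR, overlapped at 105, 137 and 126 TPM in strong and 95.3, 113 and 121 TPM in weak libraries.

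Of the genes for making fatty acids and triglycerides, 10 of 27 tested were lower and 0 higher. Elovl3, an elongase of long fatty acids, had 26.2, 24.9 and 17.5 TPM in strong, 154, 89.97 and 78.4 TPM in weak and 198, 141 and 149 TPM in C libraries, and Fads2, a desaturase of polyunsaturated fatty acids, had 71.6, 47.7 and 82.5 TPM in strong, 319, 226 and 262 TPM in weak and 475, 714 and 580.1 TPM in C libraries. Lpin1, which makes diacylglycerol from phosphatidic acid, had 9.92, 17.7 and 23.0 TPM in strong, 62.4, 42.1 and 179.9 TPM in weak and 208, 187 and 139 TPM in C libraries. Fasn, fatty acid synthase, had 20.5, 17.5 and 24.8 TPM in strong, 49.6, 41.9 and 21.3 TPM in weak and 184, 206 and 169 TPM in C libraries, with M replicate 24 inside the strong range. Against C, the mean of A-C and M was lower for Fasn by limma, at -2.73 log2 (adjusted p = 0.000975, between 0.000182 and 0.0106 over 15 alternatives). Srebf1, whose product drives Fasn, had 8.85, 18.0 and 44.2 TPM in strong and 22.4, 12.6 and 41.4 TPM in weak libraries. Fatty acid oxidation and PPAR alpha targets were lower in 18 of 43 and higher in 1. In TPM as deposited 13 were lower and 0 higher, and leaving out A-C replicate 9 or 12 gave 4 or 2 higher genes. Acsl1, which activates long-chain fatty acids, had 52.9, 90.4 and 73.8 TPM in strong, 194, 148 and 172 TPM in weak and 138, 129.8 and 147 TPM in C libraries, and Ppara itself overlapped at 25.3, 28.0 and 55.2 TPM in strong and 37.2, 43.5 and 54.8 TPM in weak libraries.

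Cholesterol synthesis genes differed between the labelled groups M and A-C. Of 25 tested members, 7 were lower in every strong library, while limma called 8 lower in M than in A-C, of the 15 genes called lower in that comparison. The count in the split was 17 without A-C replicate 12 and 21 without M replicate 24, the libraries in which label and side of the split part. Lower genes over all tested ones numbered 2228 and 2184 in these settings, against 1616 with all 6 libraries. Sqle, squalene epoxidase, had 30.8, 1.01 and 1.41 TPM in strong, 20.6, 22.1 and 1.03 TPM in weak and 17.6, 27.2 and 28.3 TPM in C libraries. It averaged 1.15 ± 0.227 TPM in M and 24.5 ± 5.49 TPM in A-C (SD, n = 3 each), a difference of -3.55 log2 (limma, adjusted p = 0.000382, between 0.000194 and 0.00588 over 16 alternatives). Idi1, an isomerase of the same pathway, averaged 1.44 ± 0.702 TPM in M and 23.7 ± 7.08 TPM in A-C (SD, n = 3 each), at -3.34 log2. Its limma adjusted p was 0.0134, between 0.00868 and 0.0707 over 16 alternatives. The call for Idi1 was lost in a fit without C, and on leaving out A-C replicate 6, A-C replicate 9 or else M replicate 26.

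Drug-metabolising P450 and conjugation genes were lower in 25 of 75 tested members and higher in 1. The lower count was 39 without A-C replicate 9 and 40 without M replicate 27. Over all 11086 tested genes it was 2554 and 2356 in these settings, against 1616 with all 6 libraries. Por, the electron donor of the microsomal P450 enzymes, had 191, 168 and 242 TPM in strong, 500.4, 425 and 542 TPM in weak and 309, 304 and 276 TPM in C libraries, with all weak libraries above C and all strong ones below it. Papss2, which makes the sulfate donor, had 33.1, 28.0 and 14.0 TPM in strong, 100.5, 57.6 and 90.4 TPM in weak and 92.5, 89.1 and 87.5 TPM in C libraries. Nr1i2, the xenobiotic receptor PXR, had 32.6, 28.1 and 39.4 TPM in strong, 94.2, 87.7 and 93.6 TPM in weak and 103, 95.4 and 92.1 TPM in C libraries, whereas Cyp3a11, its typical target, overlapped at 458, 903 and 1949 TPM in strong and 1569, 1224 and 1083 TPM in weak libraries. Cyp2e1, the ethanol-oxidising P450, had 5301, 6986 and 6846 TPM in strong and 9252, 6240.3 and 9577 TPM in weak libraries and overlapped, though it was lower in the strong libraries within A-C and within M. Hnf4a, the master regulator of hepatocyte genes, overlapped too, at 295, 366 and 494 TPM in strong and 234, 371 and 342 TPM in weak libraries.

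Other leading lower genes had varied roles. Tsc22d3, the glucocorticoid-induced leucine zipper GILZ, had 29.8, 26.8 and 31.2 TPM in strong, 119, 74.1 and 132 TPM in weak and 168, 154 and 157 TPM in C libraries. Kcnk5, a background potassium channel, had 4.64, 6.83 and 4.77 TPM in strong, 27.5, 19.1 and 58.5 TPM in weak and 39.1, 46.9 and 47.4 TPM in C libraries. Arl4d, a small GTPase, had 13.7, 12.4 and 9.33 TPM in strong, 55.0, 35.7 and 147 TPM in weak and 72.5, 115 and 104 TPM in C libraries, with M replicate 24 well above the other weak libraries. Aqp8, a water channel of hepatocytes, had 10.8, 11.5 and 10.6 TPM in strong, 50.1, 26.2 and 35.2 TPM in weak and 68.9, 97.5 and 50.7 TPM in C libraries. Tcim, a regulator of transcription and immune response, had 15.5, 10.8 and 11.998 TPM in strong, 39.3, 36.5 and 90.5 TPM in weak and 200.4, 140.0 and 124 TPM in C libraries. In each of these 5 genes the strong libraries lay below all others. Sema4g, Spata2l and Ttc39c were lower by 2.2-fold, 2.32-fold and 2.12-fold between the nearest libraries. The major urinary protein gene Mup2 had 3.24, 3.22 and 5.11 TPM in strong and 18.5, 12.7 and 21.4 TPM in weak libraries, but close copies of it could share reads, so its value is uncertain. Over the 15 lower genes with the widest gaps, the lowest weak level was between 2.12-fold and 3.52-fold the highest strong one, C lay wholly above the strong libraries in all 15, and A-C replicate 9 was the lowest weak library in 14.

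Interferon-stimulated genes were lower in 17 of 33 tested members and higher in 1, with a median of -0.31 log2. Most of the lower members had low levels, and A-C replicate 6 was the lowest weak library in 12 of the 17. Ifit3, an antiviral effector, had 3.24, 3.54 and 3.59 TPM in strong, 6.67, 9.75 and 8.88 TPM in weak and 11.1, 12.7 and 11.8 TPM in C libraries, and Gbp3, a guanylate-binding protein, had 0.787, 1.03 and 1.26 TPM in strong, 2.61, 3.14 and 3.58 TPM in weak and 3.59, 3.39 and 3.41 TPM in C libraries. Psmb9, a subunit of the immunoproteasome, had 2.25, 3.59 and 3.25 TPM in strong, 5.12, 6.99 and 7.11 TPM in weak and 8.25, 9.29 and 8.79 TPM in C libraries. In these the weak libraries lay between the strong ones and C or reached C. Iigp1, an interferon-induced GTPase, was the higher member, at 109, 119 and 145 TPM in strong and 56.1, 97.4 and 75.4 TPM in weak libraries. With only genes of at least 5 TPM on average, 5 members of the list were lower. That filter removes low members such as Gbp3, and over all genes it left 1187 lower ones, against 1616. In TPM as deposited the list had 14 lower members and Isg15 was no longer among them, its gap turning to -0.03254 log2.

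Clock and clock-output genes were lower in 10 of 21 tested members and higher in 1. Ciart, a repressor that oscillates with the clock, had 4.53, 4.04 and 4.34 TPM in strong, 8.56, 8.2 and 24.9 TPM in weak and 44.9, 46.8 and 52.2 TPM in C libraries. Noct, a night-peaking phosphatase, had 1.43, 0.94 and 2.16 TPM in strong, 5.39, 4.71 and 8.32 TPM in weak and 21.3, 14.6 and 17.4 TPM in C libraries, and Usp2, a ubiquitin protease, had 2.3, 5.54 and 9.59 TPM in strong, 29.0, 17.6 and 42.0 TPM in weak and 60.7, 45.4 and 37.1 TPM in C libraries. All A-C and M libraries were below C in Ciart and Noct. For Ciart the limma difference of A-C and M from C was -2.55 log2 (adjusted p = 0.00951, between 0.000562 and 0.0471 over 15 alternatives). For Noct it was -2.16 log2 (limma adjusted p = 0.016), which was lost without C replicate 2 or 3 (up to 0.0647). The core genes Arntl and Nr1d1 overlapped, with 5.87, 2.71 and 2.29 TPM in strong and 4.24, 4.62 and 1.56 TPM in weak libraries for Arntl and 8.43, 18.8 and 21.6 TPM in strong and 8.89, 8.36 and 14.7 TPM in weak libraries for Nr1d1. Arntl was higher in the strong libraries within A-C and within M. The labels give no time of sampling.

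None of 58 cytosolic ribosomal protein genes and none of 13 mitochondrially encoded mRNAs was free of overlap, though 24 of the ribosomal genes were lower without A-C replicate 12. Nuclear respiratory chain genes were lower in 14 of 55 and higher in 1. Their lower count was 37 without A-C replicate 9 and 26 without M replicate 26. Over all tested genes, 2228 were lower without A-C replicate 12, 2554 without A-C replicate 9 and 2052 without M replicate 26, against 1616. Proteasome subunits were higher in 4 of 37 and lower in 3. The mitochondrial share of TPM was between 12.4% and 12.9% in the strong libraries, between 11.98% and 15.1% in the weak ones and between 15.2% and 27.6% in C, where C replicate 2 stood apart.

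Markers of liver cells other than hepatocytes were present in all 9 libraries, which thus hold more than the labelled hepatocytes. Kupffer cell markers summed to 375, 386 and 357 TPM in strong, 414, 511 and 395 TPM in weak and 304, 395 and 503 TPM in C libraries, and 3 of 15 were lower in the strong libraries. Clec4f among them had 40.8, 41.6 and 38.2 TPM in strong, 53.5, 63.7 and 44.2 TPM in weak and 40.8, 36.4 and 46.1 TPM in C libraries. The Kupffer count was 5 without A-C replicate 6 and 6 without M replicate 24. Endothelial markers were lower in 1 of 16, but in 12 without M replicate 24. Without that library 2184 of all 11086 tested genes were lower, against 1616 with it. None of 18 stellate cell and matrix genes was free of overlap, but 3 were lower without A-C replicate 12, 2 without M replicate 24 and 1 without A-C replicate 9, and 1 was higher without A-C replicate 9 or M replicate 26. Hepatocyte markers were lower in 7 of 12 tested members, among them Pck1 and Tat, which the gluconeogenesis list also holds. Alb, albumin, overlapped at 44908, 46579.9 and 62985 TPM in strong and 83937, 71288 and 50627 TPM in weak libraries. The part of these cells in the other results was not tested.

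**Figure D4:**
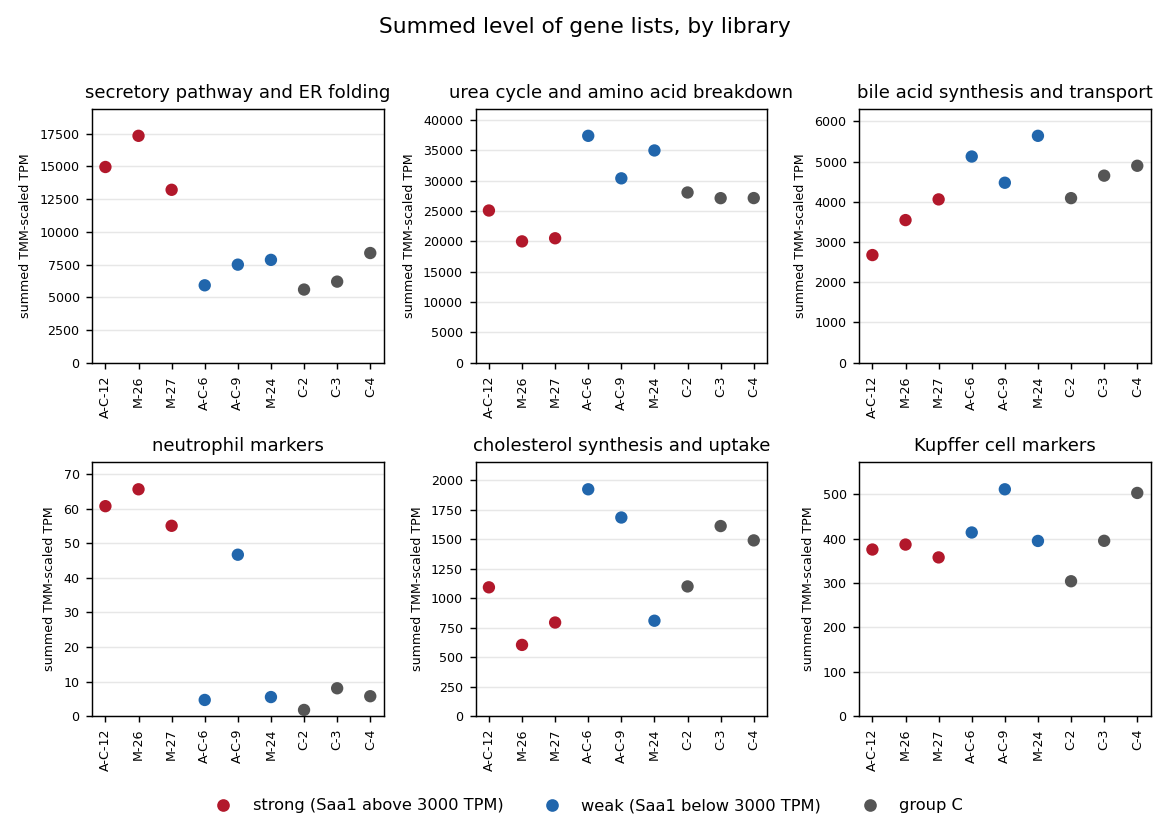
Summed TMM-scaled TPM of 6 gene lists in the 9 libraries, with 1 point per library, the strong libraries in red, the weak ones in blue and C in grey. The secretory list is higher in every strong library than in any other, the neutrophil markers of A-C replicate 9 stand nearer to the strong libraries than to the other weak ones, and the cholesterol list is low in M replicate 24.

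In the comparisons of the labelled groups, limma called 4 genes higher in M than in A-C (0.0361%) and 15 lower (0.135%) at a Benjamini-Hochberg adjusted p under 0.05. Each of these groups holds strong and weak libraries, so a gene that sets all M libraries apart from all A-C libraries overlaps in the split by construction, and the 2 sets of genes are not compared. The higher count went to 7 when A-C replicate 12 or M replicate 24 was left out, and to between 0 and 2 when C replicate 3, A-C replicate 6, A-C replicate 9, M replicate 26 or M replicate 27 was. The lower count went to 9 when C replicate 3 was left out, and to 3 or 4 when A-C replicate 6, A-C replicate 9, M replicate 26 or M replicate 27 was. For the mean of A-C and M against C, 1531 genes were called higher (13.8%) and 1175 lower (10.6%), and in TPM as deposited 3459 higher and 523 lower. Leaving out C replicate 2, 3 or 4 gave 634, 397 or 968 higher and 547, 250 or 642 lower genes. Leaving out A-C replicate 9 gave 898 higher and 675 lower genes, and leaving out M replicate 27 gave 959 and 694. Of the 15 leading higher genes, 0 were called there, with a smallest adjusted p of 0.0548. Of the 15 leading lower genes, 4 were called, at -2.13 log2 for Fads2 (adjusted p = 0.0297), -2.52 log2 for Tcim (0.0224), -1.76 log2 for Aqp8 (0.0352) and -2.02 log2 for Spata2l (0.0344), all by limma. Each of these 4 calls was lost on leaving out any 1 C replicate. Fads2, Aqp8 and Spata2l were also lost on leaving out A-C replicate 9 or else M replicate 27 and with no filter on low values, and Aqp8 and Spata2l without M replicate 26, with adjusted p up to 0.138. These genes were picked for a gap that runs within A-C and M, which widens their spread there: Fads2 averaged 131 ± 115 TPM in M, 205 ± 125 TPM in A-C and 589.9 ± 120.0 TPM in C (SD, n = 3 each). Both groups of the comparison with C hold the libraries of the split, so these values and those of the split are not independent.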

How the data were processed

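Per the labels' protocols, Trizol was used to extract the RNA of mouse liver, from which libraries were prepared. The genome build was mm10, per the submitters' processing notes; for aligner, counter and strand, the sources used here give nothing. Values deposited by the authors are TPM (reads per gene length, scaled to a common total) in 1 table, and the levels of 168 gene IDs repeated over several lines were taken once, which left 31964 gene IDs. TPM times exon length came within 0.1 of whole reads for at least 99.96% of values, and the recovered reads were 52392521 to 57046246 per strong library, 53879277 to 65165613 per weak library and 45597163 to 46631110 per C library. Whether a recovered read is a read or a read pair is not known. No pair of libraries was a copy: at least 1592 genes differed by more than 5 standard errors of counting in each pair.

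TMM factors from the recovered reads (trimming 30% of log ratios and 5% of mean levels) scaled the TPM. A gene was kept at 1 TPM or more in at least 3 libraries, and 11086 were kept. The TMM divisors were 0.875 to 0.900 in C and 1.00 to 1.10 in A-C and M, so that levels set against C depend most on the scaling. Labelled groups were compared by limma 3.58.1 (R 4.3.3) on log2(scaled TPM + 1), with all 9 libraries in 1 fit, a trend, robust settings and Benjamini-Hochberg adjustment at 0.05. Libraries were split at a deposited Saa1 of 3000 TPM, and a gene counted as free of overlap where all strong libraries lay above, or all below, all weak ones. No test was made on the split. The members and the 45 gene lists (1339 of 1347 entries matched) were chosen with earlier results of these data known. Genes named are the 15 per direction with the widest gap, an assigned name, a mean of at least 5 TPM over the 6 libraries and no place in the acute phase list, up to 4 members free of overlap per list, and a fixed set. Other named genes, mostly list members that overlapped, were chosen after their values were seen, and some genes that the rule names are not reported here. Promoters came from RefSeq (GRCm38.p6). The fit was tested on simulated data.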

Additional observations from a re-analysis of the deposited data

Results flagged for a closer look

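Genes drawn to attention here ran one way across the split in A-C and the opposite way in M. A-C replicate 12 was beyond the other A-C libraries on one side, and the strong M libraries were beyond M replicate 24 on the other. The difference between the groups was not tested. Such an order was found for 631 genes that were high in A-C replicate 12 and low in M replicates 26 and 27, and for 631 with the reverse order, of 11086 tested. Given below are only those with gaps of at least 1 log2 in both A-C and M, and those of the naming rule. Other genes named above, Herpud1, Atf5 and Trib3 among them, also had such an order. Slpi, a secreted protease inhibitor, had 2.21, 1.24 and 0.616 TPM in strong, 0.238, 0.573 and 4.71 TPM in weak and 1.85, 3.57 and 2.32 TPM in C libraries, and the smaller of its gaps in A-C and M was 1.03 log2. Hspa1b, an inducible HSP70, had 34.1, 59.3 and 80.1 TPM in strong, 77.5, 94.2 and 16.2 TPM in weak and 15.7, 35.0 and 38.7 TPM in C libraries, with a smaller gap of 1.16 log2. Igf1, the main growth factor of the liver, had 143, 116 and 90.4 TPM in strong, 95.2, 127 and 124 TPM in weak and 189, 171 and 195 TPM in C libraries, with a smaller gap of only 0.095 log2. Cebpd had 14.95, 7.26 and 9.91 TPM in strong, 10.1, 14.0 and 10.3 TPM in weak and 14.9, 10.7 and 10.95 TPM in C libraries, with a smaller gap of 0.0491 log2.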

How the results depend on the processing

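No paired analysis was possible because the groups share no replicate numbers. Canx and Isg15 lost their gaps in TPM as deposited (-0.03265 and -0.03254 log2), and the cause was not tested. The gaps of the other genes named as free of overlap kept their sign in each scaling tried. Another pseudocount, another filter or a left-out library cannot turn the sign of a gap, so those settings do not test it. With a mean of at least 5 TPM, 1326 genes were higher in the strong libraries and 751 lower in A-C and M than in C, since fewer genes were tested, and 7 were higher in M than in A-C. A pseudocount of 0.1 gave 49 higher and 44 lower genes with a gap of 1 log2. For M against A-C, there were 1 higher and 5 lower genes with no filter, 7 higher with no trend or robust settings, and 0 higher and 2 lower in a fit without C. TPM as deposited gave 3459 genes higher and 523 lower in A-C and M than in C. Leaving out 1 library at a time gave 2142 to 2742 higher and 1772 to 2554 lower genes in the split, 34 to 104 and 26 to 95 with the gap of 1 log2, 0 to 7 higher and 3 to 22 lower in M than in A-C, and 397 to 1796 higher and 250 to 1522 lower in A-C and M than in C, lowest without C replicate 3. In further gene lists, counts of 0 to 2 moved to between 0 and 3 in single alternatives. Genes that reached 1 TPM in fewer than 3 libraries were not tested.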
